A study of Drosophila melanogaster with 6 samples.

Results

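Transcript levels were described in the S2 cells of a study that compared S2 cells with S2 cells expressing the Hox protein AbdA. The 4 libraries titled S2, replicates 1 to 4, were taken out of the 6 libraries of the series. The other 2, from cells carrying HA-tagged AbdA, were not used. All 4 libraries came from the S2-DRSC strain of Drosophila melanogaster cells, labelled wild type and derived from late embryos. The cells were kept for 24 h in 10 µM copper sulphate before polyadenylated RNA was extracted, so every value below is a value in copper. The cells grew in Schneider medium with serum, and the labels do not say whether the replicates were separate cultures, so their spread may be technical. S2 is 1 cultured line, and no other line or tissue was measured beside it.

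S2 cells are commonly described as a male line resembling the blood cells, or hemocytes, of the fly. Among hemocytes, plasmatocytes engulf dead cells and microbes and secrete basement membrane, crystal cells carry the prophenoloxidases of melanisation, and lamellocytes wrap large foreign bodies. Male flies raise transcription of their single X chromosome with the MSL complex and the roX RNAs. Copper entering a fly cell acts on the transcription factor MTF-1, which turns on the metallothioneins, small proteins that bind the metal.

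Levels are given as CPM, the count of a gene divided by the total count of its library and multiplied by 1000000, or as CPM per kilobase of exonic length (CPM per kb) where genes are compared with each other. A gene was called expressed when it reached 1 CPM in all 4 libraries and silent when it had at most 3 counts in every library. Of 14770 genes, 7025 were expressed (47.6%), 3892 were silent (26.4%), and 3853 (26.1%) lay between. Only 1110 genes (7.52%) reached 100 CPM in every library. The libraries held 34233132, 43763397, 54021037 and 69858688 counts in replicates 1 to 4, at which 3 counts correspond to 0.0876, 0.0686, 0.0555 and 0.0429 CPM. A gene called silent may therefore still be transcribed below these levels, and these limits cover counting error only.

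The 4 libraries were not alike. Across expressed genes the Spearman correlation of CPM was 0.986 between replicates 1 and 2 and 0.887 between replicates 3 and 4. Replicate 4 correlated more closely with replicates 1 (0.927) and 2 (0.905) than with replicate 3. The lowest values were those of replicate 3 with replicates 1 (0.772) and 2 (0.740). Replicate 3 held more short transcripts than the others. The mean exonic length of a gene, weighted by its counts, was 2066 bases in replicate 3 and 2859, 2949 and 2801 bases in replicates 1, 2 and 4. In the tenth of expressed genes with the shortest exons, the median log2 ratio of replicate 3 to replicate 1 was 0.90, and in the tenth with the longest exons it was -1.36. The part of this length difference in any result below was not tested, and for this reason most values are given for each library. The TMM factors of edgeR, by which the CPM would be divided, were 1.12, 1.11, 0.777 and 1.03 in replicates 1 to 4, so that statements below that a gene was level across the libraries hold for CPM as defined here.

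**Figure D1:**
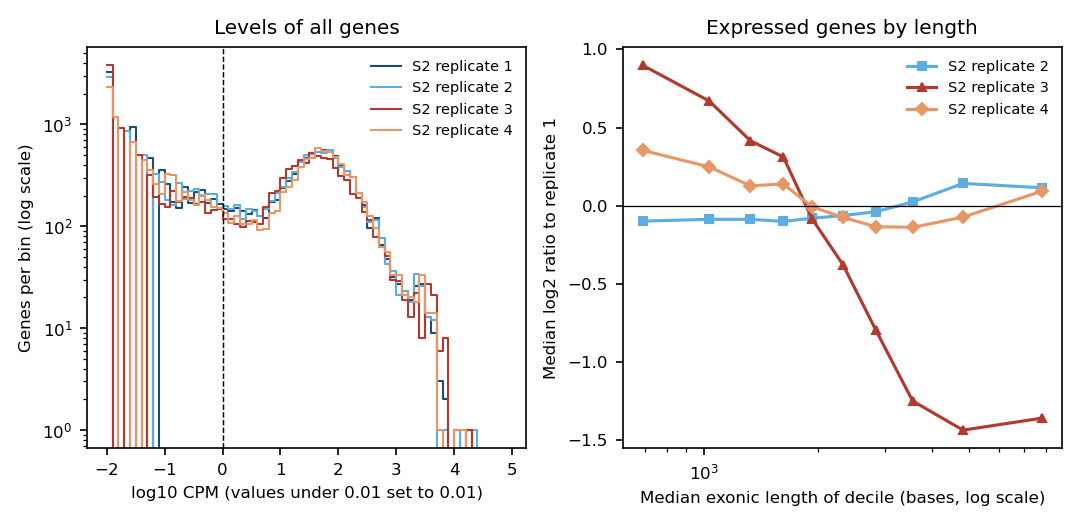
Left, number of genes (log scale) against log10 CPM in each of the 4 S2 libraries, with a dashed line at 1 CPM. Right, median log2 ratio of replicates 2, 3 and 4 to replicate 1 (CPM) in 10 groups of expressed genes ordered by exonic length in bases (log scale); replicate 3 runs downward with length, with 0.90 in the shortest group and -1.36 in the longest.

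The labels place no AbdA in these cells, so abd-A itself was looked at first. The gene lies at chr3R:12632936-12655474 on the dm3 assembly that the files use. It had 29.1, 52.7, 0 and 0.0429 CPM in replicates 1 to 4. The libraries labelled wild-type S2 replicates 1 and 2 thus held abd-A reads, and those labelled replicates 3 and 4 were at or near 0. Where a result below rests on replicates 1 and 2, the values in replicates 3 and 4 stand beside it. With replicates 1 and 2 alone 7694 genes reached 1 CPM in each library, and with replicates 3 and 4 alone 7101 did. Within these sets, 477 genes reached 1 CPM in replicates 1 and 2 and in neither of the other libraries, and 43 did the opposite.

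The most abundant transcripts were those of the translation machinery. Cytosolic ribosomal protein genes took 21.0%, 21.2%, 30.3% and 22.1% of all counts in replicates 1 to 4. Ranked by mean CPM per kb, 17 of the 20 highest genes and 78 of the 100 highest encoded ribosomal proteins. The highest was RpL41 (chr2R:20790940-20791452), with 8407, 9516, 22782 and 13646 CPM per kb in replicates 1 to 4. The other 3 of the highest 20 were Nplp2, eEF1alpha1 and MtnA. On the CPM scale, which favours long transcripts, eEF1alpha1 (chr2R:7778901-7783267) led with 18977, 20335, 7150.0 and 12463 CPM. It encodes the factor that brings aminoacyl-tRNA to the ribosome, and its level in replicate 3 was the lowest of the 4. Next came RpL5 with 10792, 11592, 19593 and 12610.3 CPM, highest in replicate 3. The elongation factor eEF2 had 7535, 7222, 1403 and 4776 CPM and was likewise lowest in replicate 3. The 20 genes of highest mean CPM together held 10.6%, 10.5%, 12.2% and 10.1% of the counts, and 207 genes made up 50% of the counts in replicate 3 against 349 to 353 in the other libraries.

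Of 88 cytosolic ribosomal protein genes, 84 were expressed, and 81 of them reached 100 CPM in every library. The exceptions were duplicate genes. RpL10Aa and RpS28a were silent, and RpL37-2 and RpS10a lay between, with 1.64, 1.74, 0.926 and 0.501 CPM for RpS10a in replicates 1 to 4. RpS5b, the copy of RpS5a, had 11.8, 8.55, 3.54 and 1.73 CPM, against 3537, 3380.0, 6726 and 4295 CPM for RpS5a, whose span on dm3 overlaps other genes. In each library RpS5a was therefore the higher copy by a wide margin. All 72 mitochondrial ribosomal protein genes were expressed, none of them at 100 CPM in every library, with a median level of 49.4 CPM per kb, against 2823 CPM per kb for the cytosolic ones.

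Outside translation, the gene of highest mean CPM per kb was Nplp2 (chr3L:13349634-13350323), annotated as a neuropeptide-like precursor. It had 6384, 4392, 7619 and 4023 CPM in replicates 1 to 4, a mean of 5604 ± 1697 CPM (SD, n = 4). MtnA, a metallothionein, came next with 5643 CPM per kb. The nucleoside diphosphate kinase awd followed at 2898 CPM per kb, with 1187, 707, 3968 and 2565 CPM by library. Idgf6, a secreted protein of the chitinase-like family, reached 2296 CPM per kb with 5527, 4437, 3614 and 3051 CPM by library, all within 2-fold of each other. The matrix glycoprotein SPARC was at 2228 CPM per kb. Cytoskeletal genes filled several of the next places: alphaTub84B at 2068, Act42A at 1849, the actin-severing cofilin tsr at 1716, betaTub56D at 1454 and Act5C at 1378 CPM per kb. Act5C and Act42A encode nearly identical proteins, as do alphaTub84B and alphaTub84D, so reads may have been divided between copies. Proteins that fold secreted chains in the endoplasmic reticulum were also high, with Calr (calreticulin) at 1263 and Pdi (protein disulphide isomerase) at 927 CPM per kb. Among genes known only by a CG number, CG15098 was the highest protein-coding one, at 1823 CPM per kb and 1491, 1808, 2244 and 1404 CPM by library.

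Lists for the basic work of a dividing cell were expressed throughout. All 37 genes of the replication and cell cycle list were expressed, including the cyclins CycA, CycB and CycE, the helicase subunits Mcm2 to Mcm7 and the replication clamp PCNA. PCNA had 248, 165, 547 and 398 CPM in replicates 1 to 4. The Cdc25-type phosphatase stg, which triggers mitosis, had 458, 205, 134 and 400.4 CPM. The germline Cdc25, twe, was much lower per length than stg, at 2.79 against 97.7 CPM per kb. All 16 genes of RNA polymerase II and its general factors, all 16 Polycomb and trithorax genes, all 17 actin regulators and all 13 antioxidant enzymes were expressed as well. Of the antioxidant genes, the superoxide dismutase Sod1 had 259.6, 222, 600.1 and 327 CPM. The glutathione transferase GstD1 had 428, 270.0, 908 and 544 CPM, and both were highest in replicate 3. Glycolysis was represented by 12 of 14 genes (85.7%, against 47.6% of all genes). Hex-A, a hexokinase, was expressed while the related Hex-C stayed between, with 0.409, 0.708, 0.259 and 0.658 CPM, and the phosphoglycerate mutase copy Pglym87 was silent.

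**Figure D2:**
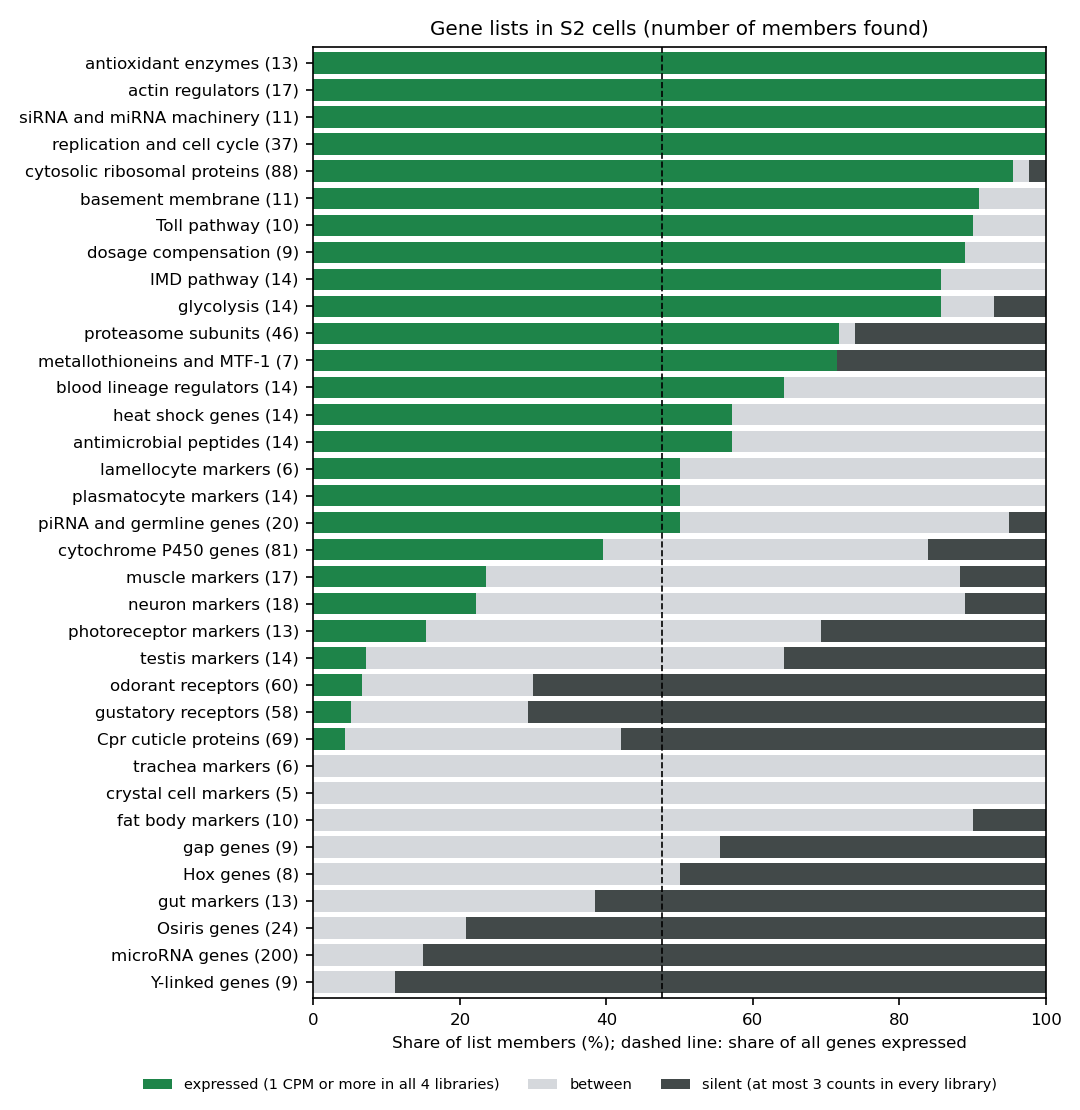
Share (%) of the members of 35 gene lists and families that were expressed (green), between (grey) or silent (dark), with the number of members found in brackets. The dashed line marks the 47.6% of all genes that were expressed; cell cycle, actin regulator, small-RNA and antioxidant lists fill the bar with green, and Y-linked, microRNA and Osiris genes are nearly all dark.

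Multi-subunit complexes had an expressed core and silent paralogues. Of 46 proteasome genes 33 were expressed (71.7%, against 47.6% of all genes). A further 12 were silent (26.1%, against 26.4% of all genes). The silent ones were all named as copies (for example Prosbeta4R1, Prosalpha6T and Rpt4R), many of which are known from the testis. The highest subunit per length was Prosalpha4, with 246, 200.3, 714 and 413 CPM in replicates 1 to 4. Vacuolar ATPase genes followed the same split, with 18 of 33 expressed (54.5%) and 10 silent (30.3%), both near the shares of all genes. Vha16-1, which encodes a membrane subunit of the proton pump, had 1433, 1827, 2375 and 1852 CPM, while Vha16-4 had no count in any library. Among actins and tubulins the cytoplasmic Act5C had 4909.5, 4319, 2490.1 and 4696 CPM. The muscle actin Act57B had 0.292, 0.297, 0.278 and 0.372 CPM, under 1 CPM in every library. The testis tubulin betaTub85D had 0, 0.0914, 0.03702 and 0.115 CPM. Of the translation initiation factors that bind the mRNA cap, eIF4E1 had 548, 525, 644 and 655 CPM, and the paralogues eIF4E3 and eIF4E4 were silent.

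Of the blood lineage regulators 9 of 14 were expressed (64.3%, against 47.6% of all genes). The GATA factor srp, needed for all fly blood cells, had 370.3, 326, 60.9 and 223 CPM in replicates 1 to 4. Its cofactor ush had 228, 221, 49.2 and 138 CPM. The ETS factor pnt, a target of receptor tyrosine kinase signals, had 762, 788, 98.7 and 379 CPM. All 3 were lowest in replicate 3, and the part of gene length in this was not tested. The repressor zfh1 had 309.7, 299, 174 and 565 CPM, highest in replicate 4. The PDGF- and VEGF-related receptor Pvr, which serves hemocyte survival and migration, had 1142, 1264, 478 and 1259 CPM, a mean of 1036 ± 376 CPM (SD, n = 4). Some other fate factors were low. The Runx factor of crystal cells, lz, had 1.69, 0.594, 0 and 0.0716 CPM. An early factor of glia and plasmatocytes, gcm, had 0.117, 0.251, 0 and 0 CPM. Collier, under the symbol kn, had 0.467, 0.754, 0.204 and 0.329 CPM and stayed under 1 CPM in every library.

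Of the plasmatocyte markers 7 of 14 were expressed (50%), a share near the 47.6% of all genes, and the list divided by library. Markers at 1 CPM or more numbered 12, 12, 8 and 7 of 14 in replicates 1 to 4. The receptor for apoptotic cells crq had 511, 607, 233 and 287 CPM and was present in all 4 libraries. The engulfment receptor drpr had 401, 433, 47.4 and 112 CPM. Hml, which encodes a clotting protein, had 202, 135, 24.8 and 51.05 CPM. Both were higher in replicates 1 and 2 than in replicates 3 and 4. The phagocytosis receptor eater had 84.9, 66.1, 1.07 and 0.744 CPM, so nearly all of its counts lay in replicates 1 and 2. The scavenger receptor Sr-CI had 49.1, 22.1, 0.315 and 0.186 CPM, under 1 CPM in replicates 3 and 4. The Nimrod gene NimB4 had 23.05, 8.25, 0.0185 and 0.1002 CPM, also under 1 CPM in replicates 3 and 4. NimC1, the receptor of the same family that serves as a plasmatocyte antigen, had 1.96, 2.19, 0 and 0.0429 CPM. In replicates 3 and 4 alone, eater, Sr-CI, NimB4 and NimC1 would not be called expressed, while crq, drpr, Hml, Pxn and Ppn would. In bulk RNA, fewer cells that express a gene and less RNA per cell cannot be told apart.

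None of the 5 crystal cell markers was expressed in all libraries. Prophenoloxidase PPO1 had 84.7, 14.1, 1.98 and 0.816 CPM in replicates 1 to 4, and the value of replicate 1 was far above the others. PPO2 had 3.56, 0.251, 0.296 and 0.143 CPM. Of the lamellocyte markers 3 of 6 were expressed (50%), near the 47.6% of all genes, and 5 were at a threshold of 0.5 CPM. PPO3, the lamellocyte prophenoloxidase, had 30.96, 38.9, 25.4 and 16.9 CPM, above 1 CPM in every library. The filamin cher and the kinase msn, both also used outside the blood, were expressed too, but the lamellocyte surface marker atilla had 0.117, 0.0229, 0.0926 and 0.0429 CPM. The integrin subunit ItgaPS4 had 3.45, 5.85, 1.31 and 0.888 CPM, under 1 CPM in replicate 4. In replicates 1 and 2 alone 1 of 5 crystal cell and 5 of 6 lamellocyte markers reached 1 CPM in each library, and in replicates 3 and 4 alone 0 and 3 did.

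**Figure D3:**
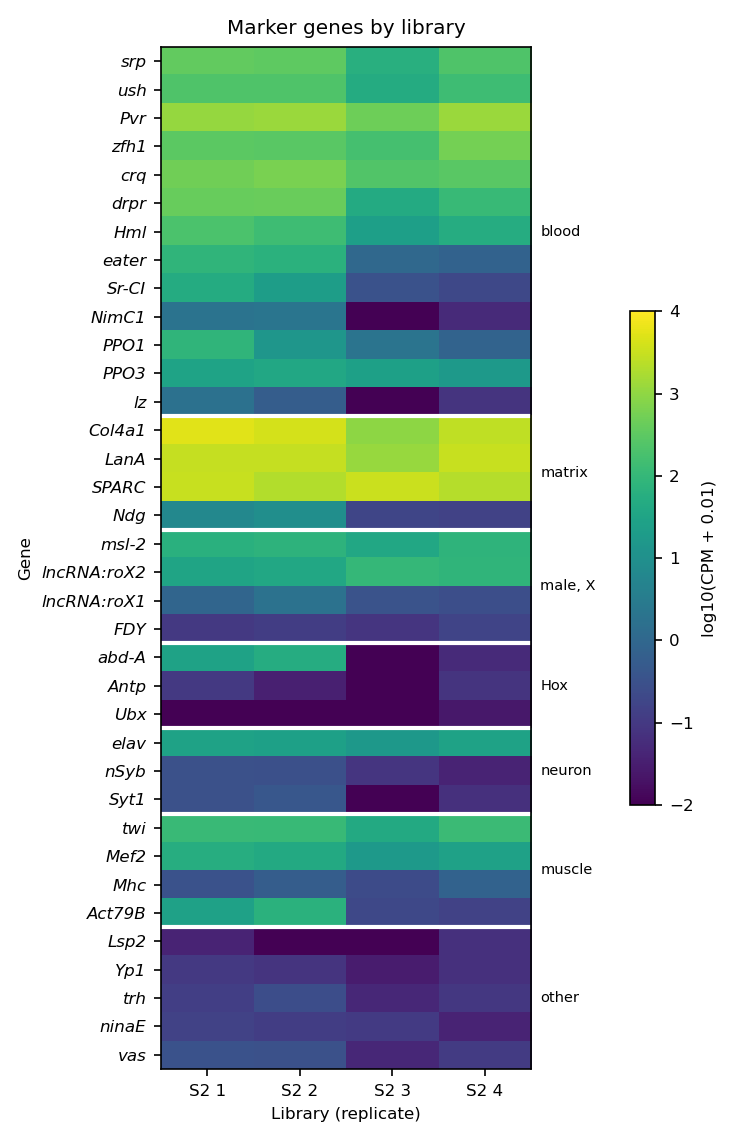
Heatmap of log10(CPM + 0.01) for selected genes of the lists (rows) in the 4 S2 libraries (columns), grouped by blood, matrix, male and X, Hox, neuron, muscle and other tissues. srp, Pvr, crq and the matrix genes Col4a1, LanA and SPARC are bright in every column, and eater, Sr-CI, Act79B and abd-A are bright in replicates 1 and 2 only.

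Basement membrane genes were abundant, with 10 of 11 expressed (90.9%, against 47.6% of all genes). Of the 11 genes, 9 reached 100 CPM in every library, against 7.52% of all genes. Together they held 20091, 17350.2, 7981 and 16195 CPM in replicates 1 to 4, lowest in replicate 3. The collagen IV chain Col4a1 had 5337, 4178, 957 and 2668 CPM. The second chain, vkg, had 3079, 2809.9, 677 and 2342 CPM. The laminin chain LanA had 2933, 2922, 1183 and 3130.3 CPM. Its partner chain LanB1 had 2035, 1828, 607 and 1935 CPM. The chain LanB2, the last of the trimer, had 1732, 1704, 441 and 1504 CPM. Each of these 5 genes was lowest in replicate 3. SPARC, which binds collagen, had 3214, 2061, 3267 and 2164 CPM, and unlike the collagens it was not lowest in replicate 3. The perlecan gene trol had 189, 132, 225 and 729 CPM. Nidogen, Ndg, was the exception with 6.37, 9.003, 0.167 and 0.143 CPM, above 1 CPM in replicates 1 and 2 only.

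The pathways that sense microbes were expressed nearly whole. Of the Toll pathway 9 of 10 genes were expressed (90%, against 47.6% of all genes). The ligand gene spz had 692, 671, 104 and 117 CPM. The receptor Tl had 40.5, 41.9, 8.55 and 15.7 CPM. Dif, a Rel-family factor that acts downstream of Tl, had 97.7, 67.9, 11.9 and 23.7 CPM. All 3 were higher in replicates 1 and 2 than in replicates 3 and 4. SPE, the protease that cuts Spz into its active form, was the member left out, with 0.409, 0.388, 0.03702 and 0.172 CPM. Of the IMD pathway 12 of 14 were expressed (85.7%). The surface receptor PGRP-LC had 127, 105, 4.74 and 12.8 CPM. Rel, the Rel-family factor of this pathway, had 221, 275, 40.4 and 93.98 CPM. Both were lower in replicates 3 and 4. The kinase subunit key had 197, 188, 239.6 and 207 CPM, close in all 4 libraries. PGRP-LE, an intracellular sensor, had 12.4, 15.6, 0.555 and 0.802 CPM, under 1 CPM in replicates 3 and 4. PGRP-LB, an enzyme that breaks down peptidoglycan, had 0.789, 0.4799, 1.22 and 1.102 CPM.

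Of the effectors of these pathways, the antimicrobial peptides, 8 of 14 were expressed (57.1%, against 47.6% of all genes). None reached 100 CPM in every library, a level that 7.52% of all genes reached. The summed level of the 14 genes was 90.1, 89.5, 160.0 and 80.3 CPM in replicates 1 to 4. The cecropin CecC had 16.2, 16.3, 16.4 and 16.9 CPM, nearly equal in the 4 libraries. The diptericin DptB had 12.04, 8.75, 50.2 and 22.5 CPM, highest in replicate 3. Drosomycin, Drs, had 13.9, 15.5, 2.61 and 0.802 CPM, above 1 CPM in 3 of 4 libraries. Def, DptA and AttC stayed under 1 CPM everywhere. AttA and AttB, and CecA1 and CecA2, are near-identical pairs whose reads cannot be divided with certainty. In the JAK/STAT pathway, the transcription factor Stat92E had 417, 337, 417 and 511 CPM. The receptor dome had 102, 134, 19.2 and 56.3 CPM. The inhibitor Socs36E, itself a target of the pathway, had 227, 357, 69.2 and 71.8 CPM. The cytokine upd3 had 10.3, 9.803, 0.481 and 0.6298 CPM, present in replicates 1 and 2 and under 1 CPM in replicates 3 and 4.

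Small-RNA genes differed by function. All 11 genes of the siRNA and miRNA machinery were expressed. AGO2, the siRNA slicer, had 596, 680.5, 164 and 410.1 CPM. AGO1, its miRNA counterpart, had 168, 193, 79.4 and 189.8 CPM. Dcr-2, which cuts long double-stranded RNA, had 111, 153, 40.7 and 86.6 CPM. Of the piRNA and germline genes 10 of 20 were expressed (50%), near the share of all genes. The piRNA effector piwi had 9.84, 11.1, 4.59 and 6.36 CPM. The helicase armi had 93.4, 75.5, 27.8 and 68.5 CPM. The germline Argonaute aub had 52.2, 48.4, 3.05 and 2.06 CPM, lower in replicates 3 and 4. Others were near 0. The germline helicase vas had 0.321, 0.297, 0.03702 and 0.1002 CPM, and the posterior determinant nos and the genes qin and tej also stayed under 1 CPM in every library. The gonadal factor tj was silent.

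Of the dosage compensation genes 8 of 9 were expressed (88.9%, against 47.6% of all genes). The male-limited subunit msl-2 had 65.5, 75.3, 39.2 and 79.5 CPM in replicates 1 to 4. The acetyltransferase of the complex, mof, had 57.3, 49.9, 38.8 and 58.8 CPM. Its helicase, mle, had 78.8, 83.7, 27.1 and 78.4 CPM. The 2 roX RNAs were unequal. roX2 (chrX:11473089-11474465) had 31.8, 38.98, 101 and 84.6 CPM, or 46.9 CPM per kb on average. In contrast roX1 had 0.876, 1.85, 0.333 and 0.272 CPM, or 0.152 CPM per kb. In each library roX2 was the higher of the pair, and its level was higher in replicates 3 and 4 than in replicates 1 and 2. All 8 sex determination genes were expressed, including Sxl, the switch gene, with 80.5, 129, 71.5 and 95.3 CPM. At the end of that cascade dsx had 2.34, 1.51, 1.33 and 1.904 CPM. Male and female forms of these genes differ by splicing, which counts per gene do not show. Of 9 Y-linked genes matched, 8 were silent (88.9%, against 26.4% of all genes). Among them the fertility genes kl-2, kl-3 and kl-5 had 0 counts in every library. FDY had 0.0876, 0.114, 0.07405 and 0.157 CPM.

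On the X chromosome 53.9% of genes were expressed, against 45.0% on 2L, 47.5% on 2R, 46.8% on 3L and 47.9% on 3R. The median level of expressed X genes was 18.5, 17.7, 12.9 and 18 CPM per kb in replicates 1 to 4, and that of expressed genes on chromosomes 2 and 3 was 22.7, 22.3, 17.5 and 22.5 CPM per kb. The ratio of X to autosomes was 0.814, 0.796, 0.733 and 0.80, a mean of 0.786 ± 0.0360 (SD, n = 4). It was under 1 in 4 of 4 libraries for genes called expressed. The direction turned with the choice of genes: over all genes with a count in at least 1 library the mean ratio was 1.94. Expressed X genes were longer than autosomal ones, with a median exonic length of 2347 against 2057 bases, and the part of length in the ratio was not tested. The small chromosome 4 had the highest share of expressed genes of the 6 arms, 59.1% of 93, with a ratio to the autosomes of 0.707, 0.882, 0.816 and 1.11.

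**Figure D4:**
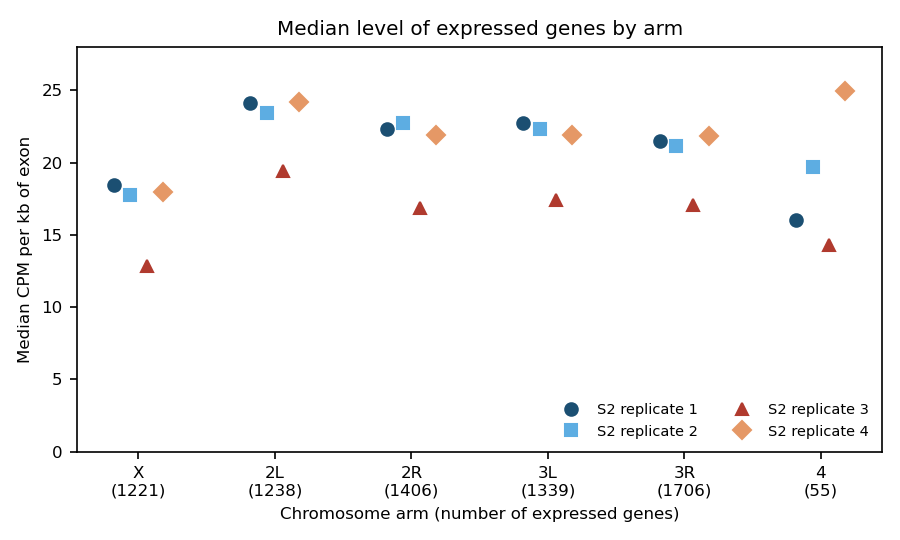
Median CPM per kb of exonic length of expressed genes by chromosome arm (number of genes in brackets), 1 symbol for each S2 library. The X symbols lie at 12.9 to 18.5 CPM per kb, under those of 2L, 2R, 3L and 3R of the same library.

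Metal and stress genes were read as levels in copper, since no library without copper was analysed here. MtnA (chr3R:5609129-5610092) had 1204, 2571, 7342 and 4684 CPM in replicates 1 to 4, a mean of 3950.2 ± 2676 CPM (SD, n = 4). Its level per length was 5643 CPM per kb, against 129 for MtnD, 52.6 for MtnB and 33.6 for MtnE. MtnB had 10.9, 24.3, 63.6 and 24.2 CPM. MtnD had 5.26, 15.9, 70.6 and 50.1 CPM. MtnE had 4.24, 12.8, 32.3 and 31.7 CPM. For MtnA, MtnD and MtnE replicates 3 and 4 were higher than replicates 1 and 2, and for all 4 genes replicate 1 was the lowest. MtnC and MtnF were silent. The metal-sensing factor MTF-1 had 75.9, 78.1, 31.6 and 70.7 CPM. The copper importer Ctr1A had 64.8, 51, 66.03 and 62.5 CPM. The exporter ATP7 had 40.8, 59.3, 34.3 and 44.3 CPM. A further importer, Ctr1B, had 1.05, 1.6, 1.11 and 0.5296 CPM, and Ctr1C was silent. The iron storage chain Fer1HCH was abundant, with 1646, 2231, 1540.3 and 1199 CPM. Its partner chain Fer2LCH had 20.3, 24.3, 10.2 and 14.01 CPM, so the 2 chains differed per length, at 696 and 10.4 CPM per kb.

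Heat shock genes were higher in replicates 1 and 2 than in replicates 3 and 4. The summed level of the 14 genes matched was 896, 1862, 203 and 212 CPM in replicates 1 to 4. Of them 8 were expressed (57.1%, against 47.6% of all genes). Hsp26, a small heat shock protein, had 125, 453, 33.9 and 9.39 CPM. Hsp23, of the same cluster, had 106, 426, 25.9 and 10.5 CPM. Both were highest in replicate 2. Hsp68 had 105, 185, 16.1 and 20.7 CPM. The Hsp70 copies were low, with 2.103, 8.07, 0.111 and 0.0429 CPM for Hsp70Bc, and reads of these near-identical copies cannot be divided with certainty. The constitutive chaperones were steadier as a sum, with 16488, 15732, 10757 and 12746 CPM in replicates 1 to 4. Hsc70-4, the main cytosolic chaperone of its family, had 4562, 4747, 5912 and 4897 CPM, a mean of 5029.5 ± 604 CPM (SD, n = 4). Hsp83 and Hsp60A varied more than Hsc70-4. Hsp83, the fly Hsp90, had 3175, 2895, 982 and 1802 CPM. The chaperonin Hsp60A had 521, 349.7, 1652 and 867 CPM, and its paralogues Hsp60B, Hsp60C and Hsp60D were silent.

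**Figure D5:**
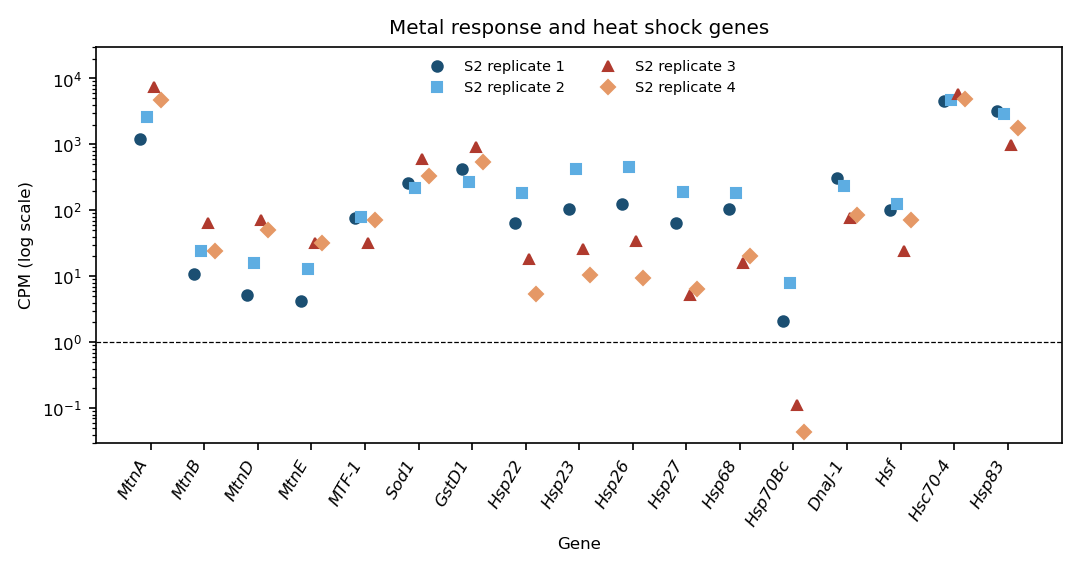
CPM (log scale) of 17 metal response and heat shock genes in the 4 S2 libraries, 1 symbol per library, with a dashed line at 1 CPM. The metallothioneins are lowest in replicate 1, the small heat shock genes are highest in replicate 2, and Hsc70-4 stays between 4562 and 5912 CPM.

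The signalling lists differed in how many members were expressed, against the 47.6% of all genes. There were 15 of 16 genes of the EGFR list (93.8%), 7 of 10 of the PVR and FGF list (70%), 5 of 10 of the Notch list (50%), 7 of 9 of the Hedgehog list (77.8%), 9 of 16 of the Wnt list (56.2%) and 10 of 15 of the BMP and activin list (66.7%). The Notch and Wnt shares were near that of all genes. Besides Pvr, its ligands Pvf1, Pvf2 and Pvf3 were expressed, Pvf2 with 363, 340.2, 1334 and 1029 CPM in replicates 1 to 4. The FGF receptor htl had 92.9, 109.5, 43.7 and 145 CPM. The other FGF receptor, btl, had 1.64, 1.14, 0.185 and 0.515 CPM, and the adaptor stumps of both receptors stayed under 1 CPM in every library. In the EGFR list the member not expressed in all libraries was the receptor itself. Egfr had 0.993, 0.686, 0.0185 and 0.157 CPM, under 1 CPM in every library. Its ligand spi had 506, 518, 1037 and 717 CPM. The inhibitor sty, which acts on several receptor tyrosine kinases, had 684, 814, 626 and 1226 CPM. The secreted inhibitor aos had 197, 268, 246 and 642 CPM, highest in replicate 4. On dm3 other genes overlap the spans of Egfr, spi, aos and sty.

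The receptor Notch had 218, 161, 21.8 and 71.01 CPM under the symbol N. Its ligand Ser had 97.8, 101, 120.4 and 212 CPM, and its ligand Dl stayed under 1 CPM in every library. The Notch target E(spl)mbeta-HLH had 2.04, 1.78, 1.28 and 0.6298 CPM. No gene of the 11 in the E(spl) complex was expressed in all libraries, against 47.6% of all genes. The Hedgehog receptor ptc had 42.1, 47.1, 13.8 and 39.9 CPM. The transcription factor at the end of that pathway, ci, had 1.81, 3.04, 0.111 and 0.215 CPM. In the Wnt pathway the ligand wg was silent and Wnt5 had 53.3, 63.3, 32.1 and 84.3 CPM. The beta-catenin arm had 783, 664, 666 and 727 CPM. Of the BMP ligands, gbb had 183, 136, 285 and 203 CPM. Another of them, dpp, had 2.72, 3.18, 0.0185 and 0.0716 CPM. The ligands Dl, hh, wg and dpp were all under 1 CPM in replicates 3 and 4.

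Of 17 insulin pathway genes 10 were expressed (58.8%, against 47.6% of all genes). Ilp6 was the only one of the 8 insulin-like peptide genes called expressed, with 141, 139, 157 and 244 CPM in replicates 1 to 4, and 5 others were silent. The receptor InR had 74.7, 110.0, 33.1 and 61.4 CPM. The translational inhibitor Thor, a target of foxo, had 231, 467, 305 and 307 CPM, highest in replicate 2. Of the ecdysone list 9 of 14 were expressed (64.3%), with both subunits of the receptor among them. EcR had 33.04, 28.5, 13.3 and 34.1 CPM. The partner subunit usp had 98.9, 79.2, 33.5 and 62.2 CPM. The salivary glue gene Sgs3, an ecdysone target, was silent. Of the cell death list 9 of 14 were expressed (64.3%). The inhibitor of caspases Diap1 had 405, 405, 227 and 313 CPM. The effector caspase Drice had 121, 105, 235 and 152 CPM. The activators grim and skl were silent, and rpr had 21.5, 28.9, 1.57 and 0.787 CPM, high only in replicates 1 and 2.

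Genes that pattern the embryo were mostly not expressed, where 47.6% of all genes were expressed and 26.4% silent. None of the 8 Hox genes was expressed in all libraries. Silent were 4 of them or 50% (lab, Dfd, Scr and Ubx). Antp had 0.0876, 0.0229, 0 and 0.0716 CPM, and apart from abd-A no Hox gene reached 0.1 CPM in any library. None of the 9 gap genes was expressed, the highest being gt with 2.83, 3.29, 0.426 and 0.859 CPM. Of the 9 pair-rule genes matched only h was expressed (11.1%), with 218, 191, 50.3 and 99.1 CPM, and 5 were silent (55.6%). Of the 8 segment polarity genes ptc and gsb were expressed (25%), gsb with 3.13, 6.67, 20.8 and 13.9 CPM, higher in replicates 3 and 4.

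Markers of other tissues were mostly low. No fat body marker of 10, no gut marker of 13 and no tracheal marker of 6 was expressed. The summed level of the fat body markers was 3.33, 3.63, 0.981 and 1.78 CPM in replicates 1 to 4 and that of the gut markers 1.11, 1.19, 0.259 and 0.358 CPM. At 1 CPM or more there were 1, 2, 0 and 0 fat body markers in replicates 1 to 4 and 0 gut markers in any library. In replicates 1 and 2 alone, 1 fat body and 2 tracheal markers reached 1 CPM in each library, and in replicates 3 and 4 alone none of either list did. Of the neuron markers 4 of 18 were expressed (22.2%, against 47.6% of all genes). The RNA-binding protein gene elav had 29.2, 26.2, 16.1 and 28.3 CPM. The others expressed were Syx1A, brp and the potassium channel Sh, the last with 4.79, 6.19, 5.76 and 6.33 CPM. Of the 4 expressed neuron markers, 3 overlap other genes on dm3, against 16.5% of all expressed genes. The synaptic vesicle genes nSyb and Syt1 stayed under 1 CPM in every library, and the transporters VGlut and VAChT were silent. The glial master regulator repo stayed under 1 CPM in every library, and the expressed members of the glia list, moody, loco and nrv2, also act in other cells.

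The muscle list gave 4 of 17 expressed (23.5%, against 47.6% of all genes). The mesoderm factor twi had 114, 109.6, 42.98 and 126 CPM in replicates 1 to 4. The muscle differentiation factor Mef2 had 54.98, 43.9, 18.1 and 27.2 CPM. The contractile genes Mhc, Tm2 and up stayed under 1 CPM in every library, and Mlc1 and TpnC73F were silent. Act79B, an adult muscle actin, had 27.3, 69.4, 0.185 and 0.143 CPM, under 1 CPM in replicates 3 and 4. The light chain Mlc2 had 46.9, 30.2, 2.94 and 2.104 CPM, likewise higher in replicates 1 and 2 than in replicates 3 and 4. Of the testis list 1 of 14 was expressed, mia with 25.8, 23.03, 22.3 and 25.7 CPM, which is nearly the same in every library. Of the photoreceptor list 2 of 13 were expressed, and both overlap other genes on dm3. The phospholipase norpA had 32.6, 34.02, 17.5 and 48 CPM, and the main opsin ninaE stayed under 1 CPM in every library. Of the clock list 7 of 11 were expressed (63.6%). The transcription factor cyc had 44.7, 46.9, 33.6 and 30.6 CPM, while its partner Clk and their target tim stayed under 1 CPM in every library and cry was silent.

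Large families tied to sense organs, cuticle and reproduction were largely silent. Of 60 odorant receptor genes 42 were silent (70%, against 26.4% of all genes) and 4 expressed, Or19b, Or1a, Or43b and Or67b. Or43b had 11.6, 10.5, 4.63 and 6.499 CPM in replicates 1 to 4. Or19b has a near-identical copy, Or19a, and 2 of the 4 expressed genes overlap other genes on dm3. Of 58 gustatory receptors 41 were silent and 3 expressed, and of 60 ionotropic receptors 37 were silent and 6 expressed. The neighbours Ir7e, Ir7f and Ir7g were all among the expressed, Ir7g with 53.6, 63.9, 19.8 and 42.3 CPM. Of 47 odorant-binding protein genes 33 were silent, and Obp99a was the highest per length, with 56.8, 93.3, 40.5 and 16.02 CPM by library.

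Of 69 Cpr cuticle genes 40 were silent (58.0%), and of 24 Osiris genes 19 (79.2%), against 26.4% of all genes. None of 45 accessory gland protein genes and none of 16 Jonah proteases of the gut was expressed, against 47.6% of all genes. Single members of neuronal channel families stood out. The nicotinic receptor subunit nAChRbeta3 had 208, 117, 369 and 306 CPM, present in every library, while of the 10 subunits only nAChRbeta2 was expressed beside it. The pickpocket channel ppk10 had 4.79, 12.98, 59.1 and 78.7 CPM, higher in replicates 3 and 4.

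Shares of expressed genes in 3 of the detoxification and membrane families were near or under the 47.6% of all genes, namely 39.5% of P450 genes, 42.9% of tetraspanins and 44.4% of serpins. Of 81 cytochrome P450 genes 32 were expressed and 13 silent. Cyp310a1 was the highest per length at 55.8 CPM per kb, with 94.1, 83.1, 110.1 and 82.9 CPM in replicates 1 to 4. The mitochondrial P450 gene Cyp12a4 had 175, 142, 21.4 and 14.2 CPM, lower in replicates 3 and 4. Glutathione S-transferase genes were expressed in 24 of 35 cases (68.6%). Of 35 tetraspanins 15 were expressed, led by Tsp42Ee with 999, 956, 842 and 770.1 CPM. Of 27 serpin genes 12 were expressed, and Spn27A, an inhibitor of the Toll and melanisation proteases, had 131, 113, 159 and 134 CPM. Of 28 Rab GTPase genes 20 were expressed, among them Rab1 of the early secretory route with 425, 508, 506 and 459 CPM. Of 13 kinesins 10 were expressed, and the conventional heavy chain Khc had 233, 233, 49.96 and 204 CPM.

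Expression of single genes varied between libraries to very different degrees. Among expressed genes the highest library was a median of 2.17 times the lowest, 3026 (43.1%) lay within 2-fold, and 128 exceeded 10-fold. Without replicate 3 the number within 2-fold was 5916, and with TMM scaling of all 4 libraries it was 2512. Among genes that reached 50 CPM in some library, the most variable was CG34398, with 89.7, 302, 0.204 and 0.687 CPM in replicates 1 to 4. It was followed by Sytalpha, a synaptotagmin, with 41.6, 325, 1.72 and 0.644 CPM. Next came CG1607 with 114, 156, 0.426 and 0.644 CPM. All 10 of the most variable genes, which also include CG33462, CG10702, hoe1, CG34437, CG5758, Nepl9 and Act79B, were higher in both of replicates 1 and 2 than in both of replicates 3 and 4. The steadiest were CG31650 with 156 ± 2.78 CPM and the splicing factor Caper with 159 ± 3.38 CPM (SD, n = 4 each). The initiation factor eIF4A, also among the 10 steadiest and the highest of them per length, had 2933, 2987, 3138 and 3071 CPM. The Wnt transducer dsh had 66.98, 62.8, 65.9 and 66.1 CPM.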

How the data were processed

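RNA of S2 cells was sequenced in 4 libraries. The deposited files give whole-number counts per gene, not normalised. Per the submitters' processing notes, CASAVA, edgeR and dm3 were used; aligner, counter, strand setting and annotation release are not given in these sources. From the counts, CPM (Python 3.11.15, pandas 2.3.3) and CPM per kb were computed. Exonic lengths came from the Ensembl 115 annotation of BDGP6.54, matched by NCBI gene number and symbol for 14468 of 14770 genes. Dm3 positions came from the files. Expression thresholds, alternatives with TMM (edgeR 4.0.16) and DESeq2 1.42.0 size factors, and other thresholds were recomputed, and the counting code was tested on simulated data. No groups were compared, so no test of a difference was run; single libraries that stand apart were marked with Dixon's rule. The 50 gene lists and 28 families, the thresholds and the subject were chosen with earlier results of these data known, and 11 list symbols did not match. The rule for named genes took abd-A, the 20 of highest mean CPM per kb, the 10 of highest mean CPM, up to 5 expressed and 5 silent members of each list (all where it had at most 8), and the 10 most and 10 least variable genes. Other list members named were chosen after their values were seen. The libraries with AbdA, the authors' table and promoter sequences were not used here. Reads of near-identical, overlapping or antisense genes are uncertain. The depth of 34233132 to 69858688 counts per library sets the counting error only. Spread between libraries comes on top, with a median ratio of highest to lowest library of 2.17 among expressed genes.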

Additional observations from a re-analysis of the deposited data

Results flagged for a closer look

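A library was marked when its gap to the nearest of the other 3, divided by the whole range of the 4, exceeded Dixon's critical value. Chance marks about 1 in 20 groups of values. Of 8 library measures 4 were marked, of 2 chromosome ratios 0, of 78 summed list levels 9, and of 226 named genes that were not silent 15. No cause was tested for any of them.

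Replicate 3 stood apart in all 4 of the marked library measures. It had 1624 genes at 100 CPM or more, against 1931, 1934 and 1946 in replicates 1, 2 and 4. Cytosolic ribosomal protein genes held 30.3% of its counts, a summed level of 302893 CPM. Its counts reached 50% with 207 genes, and its count-weighted exonic length was 2066 bases. Among the lists it stood lowest for the summed CPM of the blood lineage regulators (1171 CPM), the lamellocyte markers (397 CPM), the actin regulators (6300.0 CPM) and the kinesins (359 CPM). It stood highest for the antimicrobial peptides (160.0 CPM) and the glutathione S-transferases (2819 CPM). Of single genes it was the low library for LanA (1183 CPM), LanB1 (607 CPM), Pvr (478 CPM), the motor Khc (49.96 CPM), MTF-1 (31.6 CPM), the helicase mle (27.1 CPM) and the germline phosphatase twe (4.78 CPM). It was the high library for the cecropin CecA1 (28.9 CPM).

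Replicate 1 stood apart in the crystal cell list with a sum of 90.5 CPM, and within it in PPO1 with 84.7 CPM and PPO2 with 3.56 CPM. The other libraries had at most 14.1 CPM of PPO1. It was also the high library for tej, a Tudor-domain gene, with 0.117 CPM. That value is near the 0.0876 CPM that 3 counts make in replicate 1. Replicate 4 was the low library for the summed tetraspanins (1419 CPM) and the high library for the perlecan gene trol (729 CPM), for the EGF receptor inhibitor aos (642 CPM) and for Ilp6 (244 CPM). Replicate 2 was the high library for Sytalpha, with 325 CPM against 41.6, 1.72 and 0.644 CPM in replicates 1, 3 and 4.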

How the results depend on the processing

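The 7025 expressed genes became 7411 at 0.5 CPM and 6261 at 5 CPM, 7694 in replicates 1 and 2 alone and 7101 in replicates 3 and 4 alone. Leaving out 1 library gave 7041 to 7152 expressed genes. The 3892 silent genes became 1485 when a count of 0 in every library was asked for. The 1110 genes at 100 CPM became 1792 in replicates 1 and 2 alone and 1549 without replicate 3. The ratio of X to autosomes, 0.786, was 0.825 with a 5 CPM filter and 0.732 against 2L alone. It was 1.94 over all genes with a count, so this choice turned its direction. It ranged from 0.778 to 0.791 when 1 library was left out. The 3026 genes within 2-fold became 7517 in replicates 1 and 2 alone and 5125 in replicates 3 and 4 alone, which fewer libraries make easier to reach. Leaving out 1 library gave 3220 to 5916 genes within 2-fold, the last without replicate 3. Of the 78 lists, the number expressed moved by over 1.5 times in 16 at 5 CPM, in 15 with replicates 1 and 2 alone, in 6 at 0.5 CPM, in 1 with replicates 3 and 4 alone and in 0 with TMM scaling. Leaving out replicate 4 moved 2 lists, leaving out replicate 2 moved 1, and leaving out replicate 1 or 3 moved 0. No paired analysis was possible because the result comes from no test. The comparison of promoter motifs was not run, since promoter sequences were not used here. A gene called silent has at most 3 counts in each library, so a level below 0.0429 to 0.0876 CPM, by library, rests on at most 3 counts.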

Other observations

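Of 13333 protein-coding genes 6918 were expressed (51.9%). Of 481 long non-coding RNA genes 44 were (9.15%), of 143 antisense RNA genes 21 (14.7%), and of 200 microRNA genes 0. Mature microRNAs carry no poly(A) tail, so libraries of polyadenylated RNA do not measure their level. The highest long non-coding RNA per length was lncRNA:CR32368 (chr3L:7908537-7908946 on dm3), with 217, 207, 481 and 303 CPM in replicates 1 to 4. By CPM the highest was lncRNA:CR42862, with 1529, 2252, 183 and 705 CPM, lowest in replicate 3. Several host genes of small nucleolar RNAs lay above the median of expressed genes per length, which was 21.6 CPM per kb. Uhg4 reached 83.98 CPM per kb, with 25.5, 25.96, 68.8 and 44.6 CPM by library, and Uhg1 had 24.4, 25.6, 41.4 and 38.1 CPM. Other annotated genes overlap both spans. Of 5990 genes whose symbol is only a CG or CR number 2149 were expressed (35.9%), against 4876 of 8780 other genes (55.5%).

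The histone genes parted by class. Of 12 matched, the replacement variants were expressed: His3.3B had 999.9, 909.5, 1837 and 1169.7 CPM in replicates 1 to 4, and His2Av had 444, 325, 792 and 710.0 CPM. The single-copy gene His4r had 477, 472, 1146 and 662 CPM. The 8 members of the repeated cluster were silent. Messages of that cluster are known to end without a poly(A) tail, and the libraries were made from polyadenylated RNA. The part of this in the values was not tested.

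Heterotrimeric G proteins, which couple membrane receptors to the cell interior, were expressed in 6 of 10 cases (60%, against 47.6% of all genes). Ggamma1 had 388, 417, 843 and 555 CPM. Gbeta13F had 299, 284, 339 and 454 CPM, and the photoreceptor subunits Gbeta76C and Ggamma30A were under 1 CPM in every library. Of the Toll-like receptors 3 of 8 were expressed (37.5%), namely Tl, Tollo and 18w. Tollo had 22.7, 25.9, 6.03 and 11.8 CPM. The zinc transporter ZnT35C was under 1 CPM in replicates 1 and 2 and at 12 and 13.3 CPM in replicates 3 and 4, while the zinc importer foi had 303, 444, 92.5 and 206 CPM.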
